A study of Mus musculus with 2 samples.

Results

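Kupffer cell-rich spots were the spots of 2 liver sections in which RNA of the Kupffer cell genes Clec4f, Cd5l and Vsig4 made up the largest share of the captured RNA. For each kept spot the unique molecular identifiers (UMIs) of these 3 genes were summed and divided by the total UMIs of that spot, and the 10% of spots with the highest share in each library were taken, with ties in file order. This gave 214 of 2140 spots in the AEG-1ΔMAC section and 254 of 2540 spots in the AEG-1fl/fl section, or 468 of 4680 in all. The spots were thus selected on the counts of the same libraries in which they are described, and their comparison with the remaining spots is a description and not a test.

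Spatial transcriptomics (ST) was done on formalin-fixed, paraffin-embedded liver with 10x Visium, in which probe pairs for each gene are captured on barcoded spots. Each spot covers several cells, so hepatocytes, endothelial cells and macrophages are read together. One section came from a mouse bred to lack AEG-1 in myeloid cells (AEG-1ΔMAC) and one from a floxed littermate (AEG-1fl/fl). AEG-1 is encoded by Mtdh, and in AEG-1ΔMAC mice Cre recombinase driven from the Lyz2 locus deletes the floxed gene in macrophages, monocytes and neutrophils, whereas AEG-1fl/fl mice carry the floxed alleles with no Cre. Both mice were 27 weeks old, on a C57BL/6 background, and both sections lay on the same slide. The labels give HF/HSD (high fat/high sugar diet) from 7 weeks of age for both mice, whereas the study describes control diet-fed (CD-fed) littermates for this assay, so the diet is not settled here. There was 1 library per genotype. Genotype, mouse and section therefore cannot be told apart, no test between genotypes was possible, and each interval below is a 95% interval for counting error only.

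Kupffer cells are the resident macrophages of the liver. They sit in the sinusoids, take up particles, bacteria and aged red blood cells with scavenger and phagocytic receptors, degrade them in lysosomes and return the iron to the blood. Their identity is maintained by signals from neighbouring endothelial, stellate and parenchymal cells, and they are more abundant near the portal tract than near the central vein. Clec4f is a C-type lectin, Cd5l a secreted scavenger protein and Vsig4 a complement receptor, and all 3 are typical of Kupffer cells.

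The share of UMIs taken by the 3 genes changed gradually from spot to spot, with no gap at the limit of the top 10%. It is given in CPM, the UMIs of a gene or gene set divided by all UMIs and scaled to 1000000. In AEG-1ΔMAC the last spot inside had 930.9 and the first spot outside had 930.2. In AEG-1fl/fl the corresponding values were 855.7 and 855.1. The median of the Kupffer cell-rich spots was 1083 in the AEG-1ΔMAC section and 1057 in the AEG-1fl/fl section, and that of the remaining spots was 457 and 416. These medians rest on few molecules, a median of 22.5 and 18 UMIs of the 3 genes per Kupffer cell-rich spot. All 3 genes were found together in 189 of the 214 spots (88.3%) and in 217 of the 254 spots (85.4%). Kupffer cell-rich spots were somewhat shallower than the rest, with a median of 19533 UMIs against 21062.5 in AEG-1ΔMAC and 15990.5 against 18695 in AEG-1fl/fl. The libraries had 1782 barcodes in common among the deposited spots, and 22 of these marked Kupffer cell-rich spots in both.

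The label was checked by leaving out each score gene in turn, choosing the top 10% of spots on the other 2 genes, and reading the gene that had been left out. Clec4f was then 349.0 CPM in the chosen spots and 182.5 CPM in the others in AEG-1ΔMAC, a 1.91-fold difference. In AEG-1fl/fl it was 345.3 and 176.8 CPM, a 1.95-fold difference. Cd5l was 1.89-fold higher in AEG-1ΔMAC and 1.97-fold higher in AEG-1fl/fl, and Vsig4 was 2.04-fold and 1.99-fold higher. Each of the 3 genes thus marked the spots that the other 2 had chosen, with close to the same ratio in both libraries. From 65.9% (without Cd5l, AEG-1ΔMAC) to 89.4% (without Vsig4, AEG-1fl/fl) of the spots so chosen were also Kupffer cell-rich spots. The check thus read overlapping sets of spots and not the described spots themselves.

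Among the genes that the score did not use, RNA of other macrophage genes was higher in Kupffer cell-rich spots, led by Marco, Csf1r, Cd68 and Cfp. Levels were pooled over spots and are given as CPM, and enrichment is the log2 ratio of Kupffer cell-rich to remaining spots of the same library. Of 4674 genes whose mean reached 20 CPM, 66 (1.41%) were at least 1.2-fold higher in both libraries with intervals above 0, and 63 (1.35%) were at least 1.2-fold lower in both. The rule used these spots, so the counts are descriptive. Of the 66 genes, 26 stood in the lists of Kupffer cell identity, pan-macrophage, scavenger receptor or MHC class II genes. The share of these lists among all 4674 genes is not given here. The lists were written with earlier results of these data known, and each is set beside all genes further below. The median enrichment of all 4674 genes was -0.03 in the AEG-1ΔMAC section and -0.05 in the AEG-1fl/fl section. Pearson's r between the enrichments of the 2 sections was 0.50 across 4674 genes, where genes of a library share the same spots and depth and are not independent.

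Marco, a scavenger receptor for bacteria and particles, had the highest mean enrichment of the 4674 genes with at least 20 CPM. In AEG-1ΔMAC it was 31.3 CPM in Kupffer cell-rich and 12.1 CPM in remaining spots, an enrichment of 1.37 (1.08 to 1.65). In AEG-1fl/fl it was 87.4 and 31.2 CPM, an enrichment of 1.48 (1.32 to 1.65). The ratio was thus alike in both libraries although the level was not. Among the genes with at least 20 CPM, 4 were at least 2-fold higher in both libraries, and besides Marco these were Csf1r, Cd68 and Cfp. Csf1r, the receptor for the growth factor on which macrophages depend, was 80.7 against 39.5 CPM in AEG-1ΔMAC and 70.6 against 33.6 CPM in AEG-1fl/fl. Cd68, a lysosomal glycoprotein of macrophages, was 52.5 against 26.1 CPM and 60.4 against 28.9 CPM. Cfp, which encodes the complement stabiliser properdin, was 100.8 against 48.9 CPM and 112.1 against 55.2 CPM.

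The 3 chains of complement C1q, which liver macrophages secrete, followed the score closely. Enrichment of C1qa was 0.89 and 0.98, that of C1qb was 0.90 and 0.93, and that of C1qc was 0.95 and 0.98 in AEG-1ΔMAC and AEG-1fl/fl. Summed over the chains, single Kupffer cell-rich spots of AEG-1ΔMAC had from 116.8 to 1910 CPM with a median of 641, and the remaining spots had a median of 344. In AEG-1fl/fl, Kupffer cell-rich spots had from 0 to 2239 CPM with a median of 591, against a median of 296 in the remaining spots. The ranges overlapped, but 93.0% and 90.6% of the Kupffer cell-rich spots were above the median of the remaining spots of their library. The protease Ctss had enrichments of 0.96 and 0.98, the hyaluronan receptor Cd44 of 0.89 and 1.13, and the secreted protein gene Wfdc17 of 0.93 and 0.96.

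**Figure D1:**
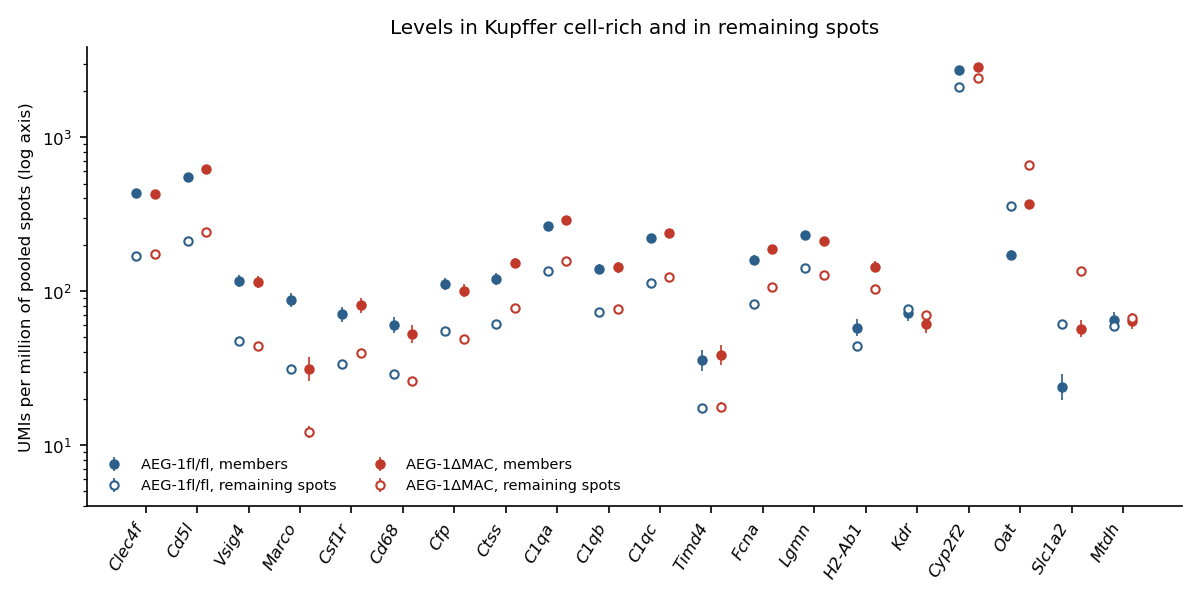
Pooled level of 20 genes in CPM on a log axis, for Kupffer cell-rich spots (members, filled) and remaining spots (open) of each library, with 95% Poisson intervals that cover counting error only. The score genes and the macrophage genes are higher in the filled points of both libraries, Marco also differs between libraries (31.3 and 87.4 CPM in members), and Slc1a2 and Oat are lower in the filled points. Levels of different genes are not comparable with each other, since each gene has its own probes.

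The promoters of the enriched genes are shown because some held a short sequence that the selection of spots did not use. PU.1, an ETS family transcription factor encoded by Spi1, is required for macrophage development and binds GAGGAAGT and related sites. Spi1 itself had enrichments of 1.0 in the AEG-1ΔMAC section and 0.74 in the AEG-1fl/fl section. GAGGAAGT was searched, on both strands and with no mismatch, in RefSeq promoters of GRCm38.p6 that run from 250 bases before to 50 bases after the annotated start. It was the single motif searched, and it was picked after the enriched genes were known. It was present in 3.20% of 32851 promoters, and in 128 of the 3759 genes (3.41%) with at least 20 CPM and an entry. Of the 66 genes higher in Kupffer cell-rich spots, 47 had an entry and 8 of these (17.0%) held the motif. Of the 63 lower genes, 49 had an entry and 0 held it. The 8 genes were Arpc1b, C1qc, Cd53, Ctsc, Ctss, Hsd17b6, Pld4 and Ptgs1. No match was found in this window for Clec4f, Cd5l, Vsig4 or Marco, which says only that these letters are not there. A match is a description of the sequence and does not show a site in use.

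The promoters of 3 of these genes are given 5′ to 3′ on the strand of the gene, with GAGGAAGT or its reverse complement ACTTCCTC in capitals. They lie at chr3:95526536-95526835, plus strand for Ctss, at chr4:136892865-136893164, minus strand for C1qc, and at chr3:106790100-106790399, minus strand for Cd53, a leukocyte tetraspanin with enrichments of 0.90 and 0.75.
Ctss: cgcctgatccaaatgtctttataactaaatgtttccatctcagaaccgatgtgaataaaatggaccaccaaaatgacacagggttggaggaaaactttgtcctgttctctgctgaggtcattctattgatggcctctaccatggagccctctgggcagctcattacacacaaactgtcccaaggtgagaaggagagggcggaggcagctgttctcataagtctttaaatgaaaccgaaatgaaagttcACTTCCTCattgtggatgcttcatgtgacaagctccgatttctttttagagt
C1qc: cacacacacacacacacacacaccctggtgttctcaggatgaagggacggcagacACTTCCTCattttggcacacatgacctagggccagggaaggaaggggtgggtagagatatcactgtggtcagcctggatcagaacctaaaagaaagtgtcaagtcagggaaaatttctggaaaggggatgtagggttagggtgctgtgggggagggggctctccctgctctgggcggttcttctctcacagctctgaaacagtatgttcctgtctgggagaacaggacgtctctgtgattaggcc
Cd53: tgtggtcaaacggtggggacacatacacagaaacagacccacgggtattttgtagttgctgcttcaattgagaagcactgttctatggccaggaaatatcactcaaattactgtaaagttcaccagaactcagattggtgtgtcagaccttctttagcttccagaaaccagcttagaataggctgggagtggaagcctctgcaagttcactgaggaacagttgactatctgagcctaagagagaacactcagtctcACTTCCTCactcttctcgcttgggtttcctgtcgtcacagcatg

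Gene lists were then read in turn, counting the genes with at least 5 CPM whose intervals lay above or below 0 in both libraries. By that rule 261 of 8697 genes (3.0%) were higher and 251 (2.89%) were lower, and the median enrichment of all of them was -0.03 in both libraries. Of 14 Kupffer cell identity genes, 10 were higher and 1 was lower, with a median enrichment of 0.72 in the AEG-1ΔMAC section and 0.74 in the AEG-1fl/fl section. Among these, Timd4, a receptor for phosphatidylserine on dying cells, had 1.12 and 1.04, and Slc11a1, a metal transporter of phagosomes, had 1.04 and 1.19. Adgre1, which encodes F4/80, had 1.01 and 0.96 at only 46 and 55 UMIs in Kupffer cell-rich spots. Il18bp, which encodes a decoy receptor for IL-18, had 1.09 and 0.71, and Fcna, a ficolin, had 0.81 and 0.94. Spic, a transcription factor of iron-recycling macrophages, was below the minimum of the list with 38 and 54 UMIs, and its values were 1.46 and 1.48. Lower values were found for some identity genes that hepatocytes or endothelium also express. That grouping was made after the values were seen, and the cause was not tested. Enrichment of the complement gene C6 was -0.28 and -0.12 (-0.07 and 0.00 within equal parts of the lobule), that of Id3 was -0.13 and -0.01, that of Nr1h3, which encodes LXRα, was 0.11 and 0.17, and that of the endothelial cadherin gene Cdh5 was 0.26 and 0.24. Cd38, a glycohydrolase of NAD, had 0.45 and 0.27. Folr2 was not analysed here.

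All 13 pan-macrophage genes with at least 5 CPM were higher in both libraries, with medians of 0.74 and 0.95. The lowest of them was the perforin-like gene Mpeg1, at 0.44 and 0.55. Lyz2, the locus that drives Cre, had only 1 and 2 UMIs in the Kupffer cell-rich spots and 24 and 39 UMIs elsewhere, so it gave no check of the cells. Of 13 scavenger and phagocytic receptors, 10 were higher, with medians of 0.43 and 0.62. Axl, a receptor tyrosine kinase for apoptotic cells, had 0.85 and 0.86, and the type A scavenger receptor Msr1 had 0.71 and 0.62. Stab1, a scavenger receptor shared with sinusoidal endothelium, was the lowest, at -0.09 and -0.00. Of 10 genes for iron and heme recycling, 5 were higher and 1, the biliverdin reductase gene Blvrb, was lower, at -0.19 and -0.35 (0.02 and -0.14 within parts of the lobule). Ferroportin (Slc40a1), which exports iron, had 0.44 and 0.49, and heme oxygenase-1 (Hmox1) had 0.93 and 1.05.

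Lysosomal genes, which hepatocytes also express, showed smaller ratios. Of 14 such genes 6 were higher, with medians of 0.11 and 0.14. Lgmn, a lysosomal protease, was the highest at 0.72 in both libraries, and the membrane protein gene Lamp2 was the lowest at -0.01 and 0.03. Of 9 transcription factors of Kupffer cells, 2 were higher, Spi1 and Maf, and Rxra, a partner of LXRα, was lowest at -0.05 and -0.12. Of 6 inflammatory mediators 1 was higher, the chemokine gene Ccl6 at 0.77 and 0.83. Il1b, below 5 CPM on average, had 0.96 and 0.97 at 25 and 24 UMIs. Of 7 MHC class II genes 5 were higher, with medians of 0.46 and 0.61. The study names Adam8, Cd63, Psap and Vcam1 for Kupffer cells from single cells. Vcam1 had 0.79 and 0.66, Psap, a lysosomal activator of lipid breakdown, had 0.12 and 0.16, and Adam8 and Cd63 had too few UMIs to read, 3 and 2 for Adam8 and 8 and 5 for Cd63.

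**Figure D2:**
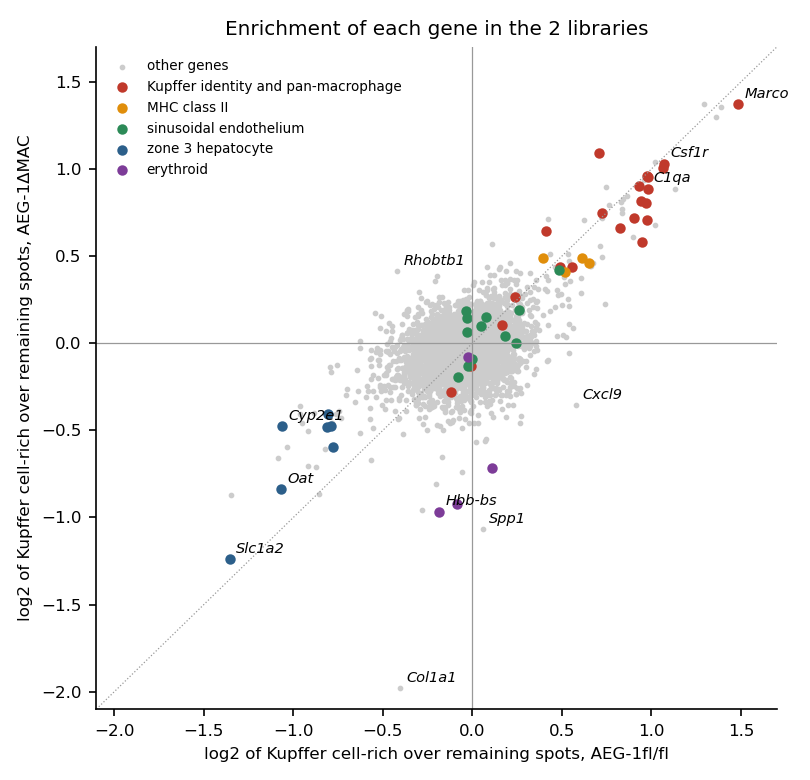
Enrichment of each gene with at least 20 CPM, as the log2 ratio of Kupffer cell-rich to remaining spots, in AEG-1fl/fl (horizontal) and AEG-1ΔMAC (vertical). Marco, Csf1r and C1qa lie at the upper right, zone 3 hepatocyte genes at the lower left and sinusoidal endothelium genes near 0, while Col1a1, Spp1 and hemoglobin genes lie below the dotted line of equal enrichment. The gray points at the top right beside Marco are the score genes themselves.

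Genes of other cells in the sinusoid had smaller ratios between Kupffer cell-rich and remaining spots than pan-macrophage genes. Of 13 sinusoidal endothelium genes 2 were higher, the mannose receptor gene Mrc1 at 0.42 and 0.48 and the Fc receptor gene Fcgr2b at 0.19 and 0.26, and macrophages express both. The median of the list was 0.10 in the AEG-1ΔMAC section and 0.05 in the AEG-1fl/fl section. Within parts of the lobule the medians were 0.15 and 0.15. The vascular receptor gene Kdr was lowest at -0.20 and -0.08. Of 9 stellate cell genes 2 were higher, with medians of 0.26 and 0.15. Within parts of the lobule the stellate cell medians were 0.34 and 0.21. Of 8 niche signals of Kupffer cells 1 was higher, Tgfb1 at 0.28 and 0.49. Il34, a ligand of the Csf1r receptor and below 5 CPM on average, had 0.78 and 0.57 at 31 and 30 UMIs. Within parts of the lobule Il34 had 0.41 (-0.38 to 1.21) and 0.44 (-0.34 to 1.22), which this depth cannot tell from 0. Lists of recruited and lipid-associated macrophages, B cells and neutrophils had from 1 to 3 genes with at least 5 CPM, none of them higher or lower in both libraries, and the lists of T cells and NK cells had 0 such genes. Within a spot, more cells of a type and more RNA per cell cannot be told apart.

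More Kupffer cell-rich spots lay in the periportal part of the lobule than in either of the other parts. Spots of each library had been ranked by the study's zone 3 (pericentral) minus zone 1 (periportal) hepatocyte markers and divided into 3 equal parts, without any Kupffer cell gene. In AEG-1ΔMAC, 106 of the 214 Kupffer cell-rich spots (49.5%, exact binomial interval 42.6 to 56.4) were in the periportal part, 71 (33.2%) in the middle part and 37 (17.3%, 12.5 to 23.0) in the pericentral part. In AEG-1fl/fl there were 135 of 254 (53.1%, 46.8 to 59.4), 92 (36.2%) and 27 (10.6%, 7.12 to 15.1). The order of the parts was the same in both libraries, and the intervals cover counting error only, since spots of 1 section are not independent draws. The shares were not compared between genotypes.

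The hepatocyte genes followed this position. Of the 63 genes lower in Kupffer cell-rich spots, 60 in the AEG-1ΔMAC section and 61 in the AEG-1fl/fl section were higher in the pericentral than in the periportal part of the lobule, against 3389 and 3303 of all 4674 genes. Slc1a2, a glutamate transporter of pericentral hepatocytes, was lowest, with 56.97 against 134.7 CPM in AEG-1ΔMAC and 24.0 against 61.4 CPM in AEG-1fl/fl. Oat, which encodes ornithine aminotransferase, had enrichments of -0.84 and -1.07, and the cytochrome P450 gene Cyp2e1 had -0.48 and -1.06, and both had been used to rank the spots. All 5 pericentral genes that had no part in the ranking were lower in both libraries, with medians of -0.60 and -0.81. When the ratio was taken inside each of the 3 parts and averaged, the medians of those 5 genes shrank to -0.16 and -0.30, and the number of lower genes was 19 in place of 63. The number of higher genes was 62, of which 56 were among the 66. Pan-macrophage genes kept medians of 0.76 and 0.92 within the parts, and Marco kept 1.23 (0.90 to 1.57) and 1.14 (0.87 to 1.40).

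Marco was itself graded along the lobule in Kupffer cell-rich spots. In AEG-1fl/fl it was 109.3 CPM in the periportal, 68.1 CPM in the middle and 39.2 CPM in the pericentral part, and in AEG-1ΔMAC it was 39.3, 24.7 and 21.5 CPM. C1q RNA, summed over its chains, varied less, with 672, 589 and 519 CPM in AEG-1fl/fl and 711, 621 and 656 CPM in AEG-1ΔMAC. By these values Marco differed more than C1q along the lobule of AEG-1fl/fl, with no test of that difference. In the pericentral part Marco rested on 15 UMIs in the AEG-1ΔMAC section and 17 UMIs in the AEG-1fl/fl section.

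**Figure D3:**
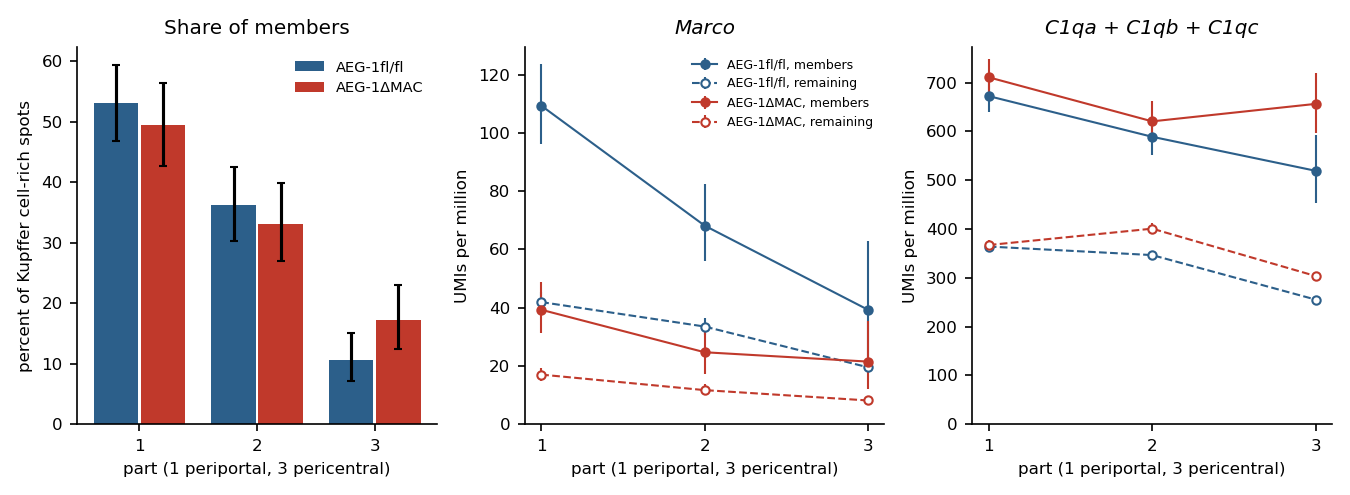
Left, percent of Kupffer cell-rich spots in each of 3 equal parts of a library from periportal (1) to pericentral (3), with exact binomial 95% intervals. Middle and right, CPM of Marco and of C1qa, C1qb and C1qc summed, in Kupffer cell-rich (members, filled) and remaining spots (open), with Poisson 95% intervals. In part 1 lie 53.1% and 49.5% of the spots, where Marco is highest in AEG-1fl/fl members, at 109.3 CPM.

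Across the whole range of the score the changes were gradual. Spots were divided into 10 equal classes by score within each library, of which the highest is the Kupffer cell-rich class. Relative to the whole library, Marco was at 0.38 in the lowest class, 1.43 in the class next to the top and 2.42 in the Kupffer cell-rich spots of AEG-1fl/fl, and at 0.31, 1.44 and 2.25 in AEG-1ΔMAC. C1q was at 0.59, 1.28 and 1.81 in AEG-1fl/fl and at 0.50, 1.36 and 1.74 in AEG-1ΔMAC. Zone 3 hepatocyte genes went the other way, from 1.75 to 0.51 in AEG-1fl/fl and from 1.27 to 0.73 in AEG-1ΔMAC. The Kupffer cell-rich spots were thus the upper end of a graded range, with no separate class of spots seen in these values.

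**Figure D4:**
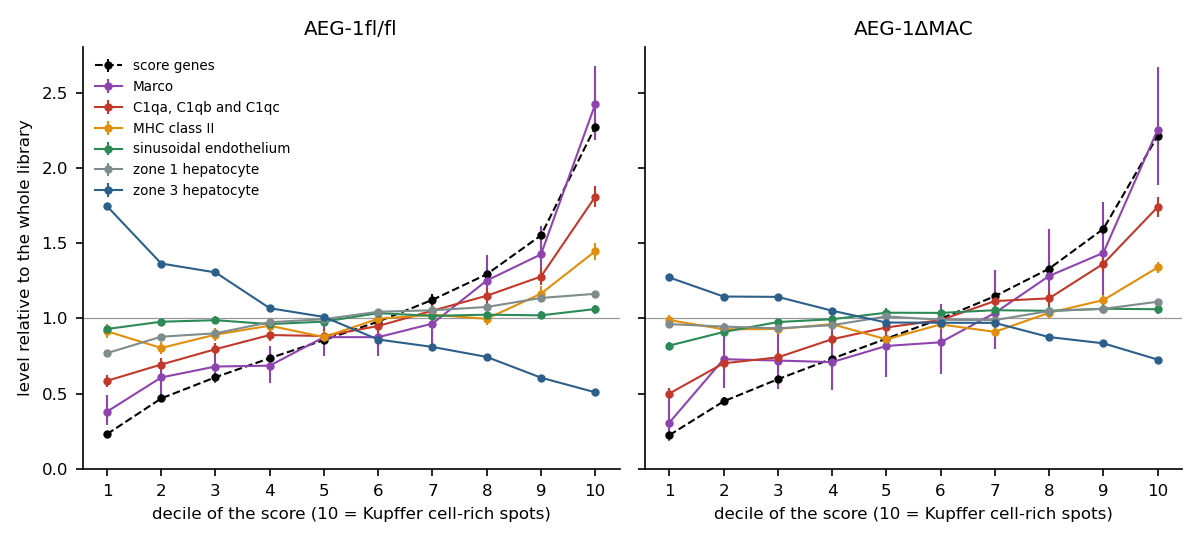
Level of gene sets relative to the whole library (1, gray line) in 10 equal classes of spots ordered by score, with Poisson 95% intervals. The score genes (dashed) define the order. In the top class Marco and C1q reach 2.42 and 1.81 in AEG-1fl/fl, and 2.25 and 1.74 in AEG-1ΔMAC, with sinusoidal endothelium near 1 and zone 3 hepatocyte genes at 0.51 and 0.73.

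Kupffer cell-rich spots were next compared between genotypes, leaving the score genes out. The targeted gene was read first. Mtdh was 64.0 CPM in Kupffer cell-rich spots of AEG-1ΔMAC and 64.8 CPM in those of AEG-1fl/fl, a log2 ratio of AEG-1ΔMAC to AEG-1fl/fl of -0.02 (-0.26 to 0.23), and 0.15 (0.08 to 0.23) in the remaining spots. Enrichment of Mtdh was -0.06 (-0.24 to 0.12) in the AEG-1ΔMAC section and 0.12 (-0.07 to 0.29) in the AEG-1fl/fl section, and the difference between them was -0.17 (-0.42 to 0.08). A loss of Mtdh from Kupffer cells was therefore not detectable in these spots, in which 10 hepatocyte genes alone took 212294 CPM (AEG-1ΔMAC) or 277111 CPM (AEG-1fl/fl). Whether the probes lie in the deleted part of the gene is not given in the sources used here.

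Of 4671 genes whose mean in Kupffer cell-rich spots reached 20 CPM, 67 (1.43%) were higher by 2-fold or more in AEG-1ΔMAC and 26 (0.557%) were lower by as much, with intervals off 0. The median log2 ratio of all these genes was 0.15, and it became -0.00 when the 50 most abundant genes were left out of the total and 0.04 with TMM factors. With those scalings 52 and 54 genes were higher in AEG-1ΔMAC and 44 and 40 were lower, so the share of higher genes depended on the scaling. All 93 genes lay on the same side in the remaining spots, and 69 of them were at least 2-fold apart there as well. The genes furthest from 0 were not macrophage genes. Gadd45g, a stress-response gene, was 208.1 against 8.07 CPM, and Alas1, the first enzyme of heme synthesis, was 280.9 against 17.8 CPM. Tff3, a secreted trefoil factor, was 9.42 against 372.7 CPM. Their enrichments in Kupffer cell-rich spots were from -0.28 to 0.08.

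The 66 genes higher in Kupffer cell-rich spots had a median ratio of 0.01 in these spots and 0.08 in the rest. Of the 66, 26 stood in the macrophage, scavenger receptor or MHC class II lists. At 1.5-fold, 5 of the 66 were higher and 2 were lower in AEG-1ΔMAC, against 323 and 87 of all 4671 genes. By these counts the 66 were not closer between the libraries than all genes. At least 2-fold apart were 3 of them, against 93 of all 4671 genes. These 3 were Marco, lower in AEG-1ΔMAC, and the MHC class II genes H2-Ab1 and H2-Eb1, higher in AEG-1ΔMAC. Lists were counted at 1.5-fold and 5 CPM, where 662 of 8708 genes (7.60%) were higher and 266 (3.05%) were lower. Of 13 pan-macrophage genes 0 were higher and 0 lower, with a median of 0.03. C1qa had a ratio of 0.12 (-0.00 to 0.23), C1qb of 0.03 (-0.13 to 0.20) and C1qc of 0.12 (-0.01 to 0.24). Csf1r had 0.19 (-0.03 to 0.42), Timd4 had 0.12 (-0.21 to 0.45) and Cd68 had -0.20 (-0.47 to 0.06). Clec4f and Vsig4 were at -0.02 each and Cd5l at 0.17, as a description of the spots that they chose. Taken relative to the median of 0.15, C1qa, C1qb and C1qc were at -0.03, -0.12 and -0.03.

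Among 14 Kupffer cell identity genes, 2 were higher and 1 was lower. Marco was 31.3 CPM in the AEG-1ΔMAC section and 87.4 CPM in the AEG-1fl/fl section, a ratio of -1.48 (-1.78 to -1.19) from 133 and 379 UMIs. It was -1.37 (-1.52 to -1.22) in the remaining spots, so both kinds of spots showed it. Relative to the median of all genes, Marco was at -1.63, Cd163 at 1.14 and Id3 at 0.49. The ratio of Marco was -1.48 in the periportal, -1.47 in the middle and -0.87 (-1.98 to 0.22) in the pericentral part. Cd163, the receptor that takes up hemoglobin bound to haptoglobin, went the other way, with 40.7 and 16.6 CPM and a ratio of 1.29 (0.89 to 1.71), and 1.45 (1.29 to 1.62) in the remaining spots. The other higher gene was Id3, at 0.64 (0.46 to 0.82), which was not enriched in Kupffer cell-rich spots of either library. Spic had 38 and 54 UMIs and a ratio of -0.48 (-1.12 to 0.15), which this depth cannot tell from 0.

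Few genes for scavenging and iron handling passed 1.5-fold, and they lay on both sides, where 7.60% of all 8708 genes were higher and 3.05% were lower. Cd163 stood in both lists and, like Marco, among the identity genes. Of 13 scavenger and phagocytic receptors 1 was higher, Cd163, and 3 were lower, Marco, the fatty acid receptor gene Cd36 at -0.90 (-1.12 to -0.68) and the Fc receptor gene Fcgr3 at -0.59 (-0.98 to -0.21). Fcgr3 was 0.15 (-0.00 to 0.31) in the remaining spots, and its enrichment was 0.43 in the AEG-1ΔMAC section against 1.18 in the AEG-1fl/fl section. The median of the list was 0.05. Of 10 genes for iron and heme recycling, Cd163 and Blvrb were higher and Hmox1 was lower. Blvrb was not enriched in Kupffer cell-rich spots of either library. Hmox1 was 23.3 CPM in the AEG-1ΔMAC section and 41.7 CPM in the AEG-1fl/fl section, a ratio of -0.84 (-1.21 to -0.48), and -0.72 (-0.88 to -0.57) in the remaining spots. Ferroportin (Slc40a1) had 0.21 (0.06 to 0.36). Of 14 lysosomal genes 0 were higher and 0 lower, with a median of -0.14.

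MHC class II genes, which present peptides to T cells, were higher in AEG-1ΔMAC as a group. Of 7 genes 5 were at least 1.5-fold higher, with a median ratio of 0.90 in Kupffer cell-rich and 1.09 in remaining spots. H2-Ab1 was 144.3 against 57.9 CPM, a ratio of 1.32 (1.10 to 1.54), and H2-Eb1 was 87.6 against 38.1 CPM, a ratio of 1.2 (0.93 to 1.48). The invariant chain gene Cd74 had 0.82 (0.73 to 0.91), and H2-DMb1, with 58 and 52 UMIs, had 0.19 (-0.38 to 0.76). Summed over the list, the ratio was 0.78 in the periportal, 1.0 in the middle and 1.15 in the pericentral part. Of 9 interferon response genes 3 were higher, among them Irf7, a regulator of interferon genes, at 0.65 (0.38 to 0.92). Of 3 B cell markers with at least 5 CPM 2 were lower, and the summed level of the list in Kupffer cell-rich spots was 40.7 CPM in AEG-1ΔMAC against 59.3 CPM in AEG-1fl/fl. The part of other antigen-presenting cells was not tested.

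Genes of recruited and lipid-associated macrophages were few. Of 3 genes with at least 5 CPM, the lipoprotein lipase gene Lpl, at 48.7 and 165.6 CPM, and the fatty acid-binding protein gene Fabp5, at 31.5 and 82.6 CPM, were lower in AEG-1ΔMAC. Their ratios were -1.76 (-1.99 to -1.54) and -1.39 (-1.69 to -1.10). Neither was enriched in Kupffer cell-rich spots, although the study lists Fabp5 among its Kupffer cell markers for this assay. Enrichment of Lpl was -0.07 and -0.23, and that of Fabp5 was -0.09 (-0.35 to 0.17) in the AEG-1ΔMAC section and -0.57 (-0.72 to -0.41) in AEG-1fl/fl. Of the genes that the study names from single cells, Psap had a ratio of 0.05 (-0.04 to 0.14) and Vcam1 of -0.14 (-0.53 to 0.25).

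**Figure D5:**
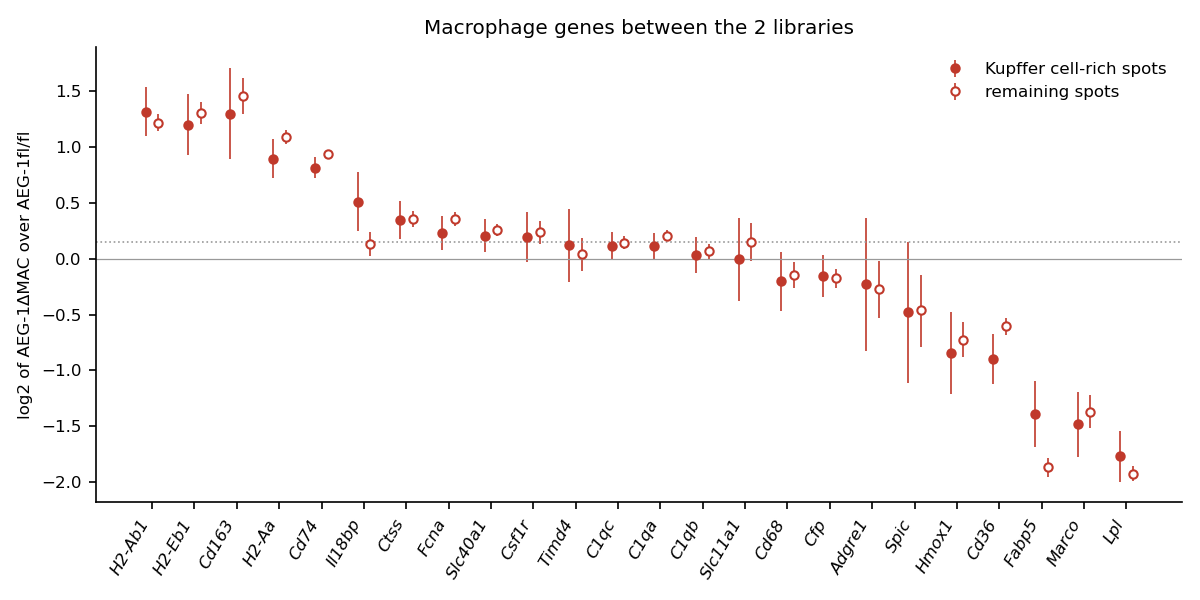
log2 ratio of AEG-1ΔMAC to AEG-1fl/fl for 24 genes in Kupffer cell-rich (filled) and remaining spots (open), with exact conditional 95% intervals for counting error. Of these genes, Lpl and Fabp5 were not enriched in Kupffer cell-rich spots. A dotted line marks 0.15, the median of all genes in Kupffer cell-rich spots. C1q, Csf1r, Timd4 and Cd68 lie near 0, MHC class II genes and Cd163 lie above it, and Hmox1, Cd36, Fabp5, Marco and Lpl lie below it, with both kinds of spots on the same side for each of these.

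The contrast between Kupffer cell-rich and remaining spots was then compared between libraries, as the difference of the log2 enrichments, AEG-1ΔMAC minus AEG-1fl/fl. Of 4674 genes, 12 (0.257%) were enriched at least 1.5-fold more in AEG-1ΔMAC and 15 (0.321%) at least 1.5-fold less, with intervals off 0. None of the 27 was a Kupffer cell identity or pan-macrophage gene. The share of genes called was so small that this absence says little about those short lists. The difference was -0.11 (-0.43 to 0.21) for Marco, -0.16 (-0.59 to 0.27) for Cd163 and -0.09 (-0.22 to 0.04) for C1qa. The counts of 12 and 15 depended on the limit of the top 10% and were 60 and 47 with the top 5%, of which 7 and 9 were shared.

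The genes with the lowest difference belong to other structures of the liver. Col1a1, a chain of type I collagen, was 5.18 against 20.4 CPM in AEG-1ΔMAC and 16.4 against 21.7 CPM in AEG-1fl/fl, a difference of -1.58 (-2.28 to -0.87). Spp1, which encodes osteopontin and is abundant in bile ducts, was 33.7 against 70.5 CPM and 59.0 against 56.7 CPM, a difference of -1.13 (-1.43 to -0.82). The hemoglobin genes Hba-a2 and Hbb-bt had -0.84 (-0.98 to -0.70) and -0.83 (-1.23 to -0.43), as members of families of near-identical copies. Genes of the vessel wall, all below 20 CPM, followed them, and the 5 with at least 5 CPM had a median enrichment of -1.53 in the AEG-1ΔMAC section and 0.06 in the AEG-1fl/fl section. Of the 5% of spots with the most vessel wall and bile duct RNA (107 and 127 spots), 1 was Kupffer cell-rich in the AEG-1ΔMAC section and 19 were in the AEG-1fl/fl section. Without those spots the difference was -1.16 for Col1a1, -0.59 for Spp1, -0.17 for Hba-a2 and -0.23 for Hbb-bt. Spp1 was among the genes by which those spots were picked, so its smaller difference was partly set by that choice. Of the 68 genes that were then higher in both libraries, 61 were among the 66.

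Cxcl9, a chemokine induced by interferon gamma, was lower in Kupffer cell-rich spots of AEG-1ΔMAC, with 27.1 against 34.6 CPM, and higher in those of AEG-1fl/fl, with 15.9 against 10.7 CPM. The difference was -0.93 (-1.39 to -0.48). The genes with the highest difference included Rhobtb1 with enrichments of 0.41 and -0.42, Cgn, which encodes the tight-junction protein cingulin, with 0.18 and -0.54, and Fasn, the fatty acid synthase gene, with 0.01 and -0.63. Sdf2l1, a gene of the endoplasmic reticulum, had 0.15 and -0.51, and Gm4756 had -0.13 and -0.79.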

How the data were processed

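The authors processed the ST reads with Space Ranger 2.0.1 and deposited matrices of raw UMI counts, with 19465 genes in rows and spots in columns. The submitters' processing notes name mm10 and Seurat 4.3.0. Spots were kept with at most 50000 UMIs and from 100 to 7000 genes, which removed 9 AEG-1ΔMAC and 3 AEG-1fl/fl spots. Counts were pooled over spots and given as CPM. At 20 CPM, the pooled Kupffer cell-rich spots held 85.0 (AEG-1ΔMAC) or 86.7 (AEG-1fl/fl) UMIs of a gene. Log2 ratios have exact conditional binomial 95% intervals, and CPM values have exact Poisson 95% intervals. UMIs remove PCR copies, and the intervals cover counting error only. No p-value was computed, as spots of a section are not replicates. The interval of a difference of enrichments came from the counting variances of the 4 counts.

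Genes named were the 10 highest and the 10 lowest mean enrichments at 20 CPM, the 8 highest and 8 lowest genotype ratios at 50 CPM, the 5 highest and 5 lowest differences, all identity genes, the highest and lowest gene of each of 27 lists with at least 20 UMIs in both libraries, and Mtdh, Lyz2, Fabp5, Adam8, Cd63, Psap and Vcam1. Of these, the text gives those that bear on macrophages and summarises the rest. Other genes were named after their values were seen. The members and the lists were chosen with earlier results of these data known.

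Alternatives were the top 5% and 20%, depth-balanced spots, a score without each gene, mean spot CPM, all deposited spots, ratios within lobule parts, other scalings, other thresholds and, chosen after seeing the data, leaving out vessel-rich spots. Ratios were tested on simulated Poisson counts, drawn from the pooled profile of each library with known folds put in. The simulation held no selection of spots and no differences between spots, so it checked only the calculation and its counting intervals. Promoters came from RefSeq (GRCm38.p6), matched by symbol. Python 3.11.15, numpy 2.4.6, scipy 1.17.1, pandas 2.3.3, matplotlib 3.10.9 and edgeR 4.0.16 (TMM factors only) were used.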

Additional observations from a re-analysis of the deposited data

Results flagged for a closer look

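For 2 of the named genes, Kupffer cell-rich spots lay on opposite sides of the remaining spots in the 2 libraries, each with an interval off 0. For Cxcl9 the log2 enrichment was -0.36 (-0.64 to -0.08) in the AEG-1ΔMAC section and 0.58 (0.19 to 0.94) in the AEG-1fl/fl section, a difference of -0.93. For Rhobtb1 it was 0.41 (0.14 to 0.68) and -0.42 (-0.77 to -0.08), a difference of 0.83. With 1 library per genotype, neither difference was tested. Taking the ratio inside each part of the lobule left Cxcl9 at -0.45 and 0.34, with an interval from -0.19 to 0.86 for AEG-1fl/fl, and Rhobtb1 at 0.30 and -0.57, with an interval from -0.01 to 0.61 for AEG-1ΔMAC. Without the vessel-rich spots the differences were -1.03 for Cxcl9 and 0.82 for Rhobtb1.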

How the results depend on the processing

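Leaving out a replicate was not possible with 1 library per genotype, and no paired analysis was possible because the groups hold 1 sample each. Within parts of the lobule some enrichments that lay off 0 changed sign or came close to 0: in AEG-1ΔMAC, Blvrb went from -0.19 to 0.02, Hal from 0.28 to -0.00 and Apoa2, a hepatocyte gene, from -0.02 to 0.03, and in AEG-1fl/fl, C6 went from -0.12 to 0.00, Apoa2 from -0.05 to 0.02 and Tff3 from 0.08 to -0.05. The mean enrichments over both libraries, genotype ratios and differences recomputed for named macrophage and leading genes did not change sign where they had passed the fold limit. The 66 higher genes became 28 at 1.5-fold and 174 at 5 CPM, and the 63 lower genes became 10 at 1.5-fold and 19 within parts of the lobule. For the genotype ratio, the 67 higher genes became 323 at 1.5-fold and 150 at 5 CPM, and the 26 lower genes became 87 at 1.5-fold, 99 at 5 CPM, 44 without the 50 most abundant genes and 40 with TMM factors. The differences of enrichment were least stable: the 12 higher genes became 60 with the top 5%, 2 with the top 20%, 7 with depth-balanced spots, 7 without Clec4f, 6 without Cd5l, 23 with mean spot CPM and 39 within parts, and the 15 lower genes became 47 with the top 5%, 6 with the top 20%, 9 without Cd5l, 24 with mean spot CPM, 25 within parts and 8 without vessel-rich spots. The median enrichment of identity genes in AEG-1fl/fl became 0.55 within parts, and that of MHC class II genes in AEG-1ΔMAC became 0.68 without vessel-rich spots. The causes were not tested. Depth limited genes such as Spic, with 38 and 54 UMIs, whose genotype interval ran from -1.12 to 0.15.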

Other observations

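Among the 66 genes higher in Kupffer cell-rich spots were some that stood in none of the lists. Those given here were picked after their values were seen, and no group is claimed from them. Cyba, which encodes a subunit of the phagocyte NADPH oxidase, had enrichments of 0.80 in the AEG-1ΔMAC section and 0.77 in the AEG-1fl/fl section. Pld4, an endosomal nuclease, had 0.61 and 0.89, and Unc93b1, needed for nucleic acid-sensing Toll-like receptors, had 0.38 and 0.51. Tmsb4x, which encodes the actin-binding thymosin beta-4, had 0.49 and 0.72, Arpc1b 0.39 and 0.41, and Cotl1 0.36 and 0.42.

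Some of the 66 are not known as macrophage genes. Etnppl, an enzyme of phosphoethanolamine breakdown in hepatocytes, had enrichments of 0.36 and 0.55 and was the gene, besides Marco, at least 1.5-fold lower in AEG-1ΔMAC among the 66, at -0.84 (-0.96 to -0.72). Hal, a periportal enzyme of histidine breakdown used to rank the spots, had 0.28 and 0.29, and -0.00 and 0.03 within parts of the lobule. Dmpk, a protein kinase gene, had 0.75 and 0.83.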
